A study of Mus musculus with 5 samples.

Results

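The genes described here are the enzymes of lower glycolysis and a set of known targets of hypoxia-inducible factor (HIF), 34 genes chosen by name from those printed on the array. They were chosen with earlier results of these data known. Shares of all tested genes printed beside theirs are therefore a description and cannot measure an excess. All 34 had at least 1 probe among the 31829 gene names on the array. Where a gene had several probes, its brightest on average stands for it. Of the 34, 31 could be tested, among 25863 genes tested in all. Gpi1, glucose-6-phosphate isomerase, stands in the list although it acts above phosphofructokinase rather than below it.

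RNA was measured on 5 single-colour Agilent arrays, 1 per sample of MIN6 cells, a beta cell line that arose in a mouse tumour and releases insulin. In the EXO-STD group (n = 2) the cells had been incubated with exosomes, small secreted vesicles, collected from muscle of mice fed a standard diet and kept ex vivo. In the EXO-HP group (n = 3) the exosomes came from muscle of mice fed a high fat diet. No group lacked vesicles, and neither vesicle dose nor exposure time, nor strain, sex or age of the mice, is given in the sources used here. Replicates are named biological, but separate cultures or vesicle pools are not described, so p-values measure only the spread between these samples, which may be technical.

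Slide 1 held both EXO-STD samples with EXO-HP replicate 1, and slide 2 held the 2 remaining EXO-HP samples. Between 71.8% and 74.0% of spots were well above background on slide 1, but 91.6% and 81.6% on slide 2, and slide and group are partly confounded. All 16 beta cell markers, the insulin genes among them, were well above background on all 5 arrays. The log2 of the summed signal of 15 skeletal muscle markers was 0.55 and 0.16 in EXO-STD and ranged from 0.45 to 1.71 in EXO-HP. Of their 11 tested members, 11 had a higher mean in EXO-HP, with limma finding 0 at an adjusted p under 0.05 and 2 at an unadjusted p under 0.05. All 7 tested macrophage and leukocyte markers also had a higher mean in EXO-HP (median 0.36, 2 at an unadjusted p under 0.05). So had 14 of 16 beta cell markers (median 0.14), and 0 of either list had an adjusted p under 0.05. Over all tested genes, 16146 of 25863 had a higher mean, and 5.63% had one with an unadjusted p under 0.05 in limma. Summed fibroblast markers ranged from -2.11 to -2.07 in EXO-STD and from -2.03 to -1.39 in EXO-HP. Of their 6 tested genes, 2 had a lower and 4 a higher mean in EXO-HP. Summed macrophage and leukocyte markers overlapped, with 3.44 and 3.54 in EXO-STD and 4.05, 3.27 and 3.59 in EXO-HP. Endothelial markers overlapped likewise in their sum, and of 8 tested 4 had a lower and 4 a higher mean. The part of these markers in the results was not tested. In bulk RNA, fewer cells of a type and less RNA per cell cannot be told apart. Values are normalised log2 signals in which 0 is the 75th percentile of an array, so that a difference of -1 is a halved signal. Levels are compared between arrays for 1 probe, never between genes.

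Glycolysis splits glucose to pyruvate in the cytosol. Beta cells depend on it to couple blood glucose to insulin release, and mature beta cells send nearly all the pyruvate into mitochondria. HIF is a transcription factor whose alpha subunits are hydroxylated and degraded when oxygen is plentiful. When oxygen is scarce it binds short RCGTG elements and raises glycolytic enzymes, vascular signals, pH regulators, collagen-modifying enzymes and several histone demethylases.

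Most of the genes had a lower mean in cells given EXO-HP vesicles, and none could be called. Of the 31 tested, 24 had a lower and 7 a higher mean in EXO-HP, where 37.6% of all tested genes had a lower mean. That share was 42.3% among genes well above background on all 5 arrays, as 30 of the 31 were. It was 58.1% in the brightest 10% of tested genes, which held 8 of the 31, 7 of them lower. Over the 31 the median log2 difference was -0.26, against 0.07 over all tested genes, and the differences ran from -0.59 for Fam162a to 0.24 for Car9. With limma, 0 of the 31 passed an adjusted p of 0.05 and 0 had an unadjusted p under 0.05. Over all 31943 probes 0 passed as well, while an unadjusted p under 0.05 was reached by 0.238% with a lower and 5.39% with a higher mean (0.240% and 5.63% of genes). That split varied with the processing and with the model. A lower mean was found for 76 of the 1797 probes at an unadjusted p under 0.05 here, but for 205 of 1298 with median scaling, 225 of 868 with quantile normalisation, 159 of 490 with normexp, 169 of 631 in the deposited values and 343 of 843 with the slide as a block. The count of members at an unadjusted p under 0.05 in limma was 2 with normexp and 2 with median scaling, where 490 and 1298 of all probes reached it. It was 1 with quantile normalisation and 1 in the deposited values, where 868 and 631 of all probes did. Without EXO-HP replicate 2 it was 1, and the total over all probes is not given here. The smallest p among the 31 genes was 0.0881 (Kdm3a, adjusted p = 0.929 in limma), and the other adjusted p-values were between 0.953 and 1.00.

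**Figure D1:**
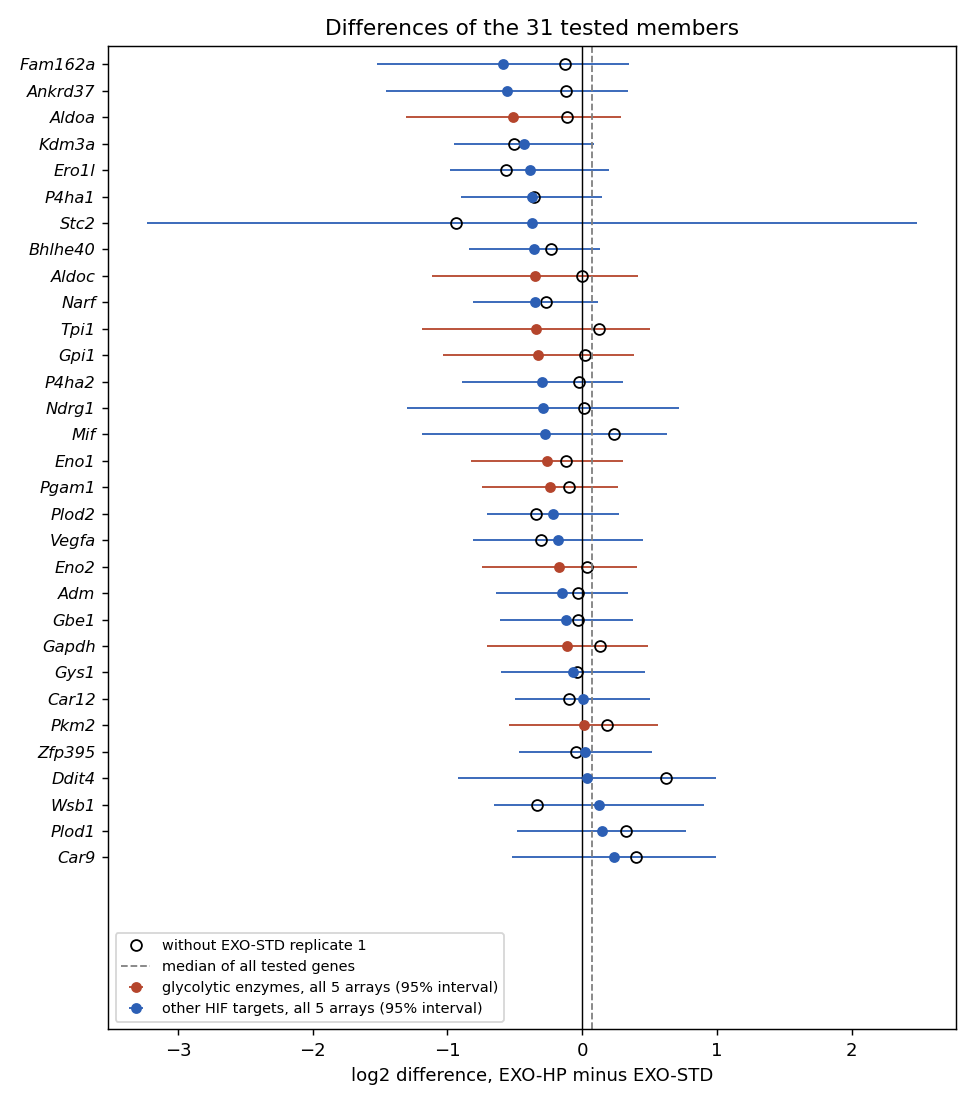
Log2 difference between the group means (EXO-HP, n = 3, minus EXO-STD, n = 2) for the 31 tested genes, with limma's 95% intervals; open circles leave out EXO-STD replicate 1 and the dashed line is the median of all tested genes, 0.07. Every interval spans 0. The open circles lie below 0 for 3 of the 9 glycolytic enzymes (red points) and for 17 of the 22 other targets. Kdm3a, Ero1l, P4ha1 and Narf are among those 17.

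The spread between the EXO-STD samples was as large as most of these differences. The gap between the EXO-STD arrays exceeded the difference between the group means for 25 of the 31 genes, as it did for 67.1% of all tested genes. The 6 exceptions were Kdm3a, P4ha1, Bhlhe40, Narf, Ero1l and Gys1. EXO-STD replicate 1 was the highest of the 5 arrays for 19 of the 31 genes, where 14.9% of all tested genes had their highest value on it. Without that array 20 of 31 had a lower mean, with a median of -0.05 (36.2% of all genes, median 0.12), and without EXO-STD replicate 2 there were 26 (40.2% of all genes), with a median of -0.37.

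On the brightest probe of each gene, groups that did not overlap all had EXO-HP below EXO-STD. For 6 of the 31 genes all EXO-HP arrays lay below both EXO-STD arrays, against 2.80% of all tested genes, and for 0 they lay above both, against 15.1%. Among genes well above background on all 5 arrays, 42.3% had a lower mean and 3.18% had EXO-HP wholly below. The 6 genes were Kdm3a, P4ha1, Plod2, Bhlhe40, Narf and Pgam1. With 2 and 3 arrays, 0.2 is the smallest 2-sided p that an exact permutation test allows.

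The glycolytic enzymes separated EXO-STD replicate 1 from the other arrays more than they separated the groups. Of 9 tested enzymes, 8 had a lower mean in EXO-HP, with a median difference of -0.26, and 8 were highest on EXO-STD replicate 1. Without that array 3 of 9 had a lower mean and the median was 0.02. For all 9 the gap between the EXO-STD arrays exceeded the difference between the groups.

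Aldoa, the aldolase that splits fructose bisphosphate, read 5.81 and 5.01 in EXO-STD and 4.78, 5.20 and 4.71 in EXO-HP, each group in the order of its replicate numbers, as for all genes here. EXO-STD replicate 1 stood apart, and EXO-HP replicate 2 lay between the EXO-STD arrays. The difference of -0.51 ± 0.32 (SE) was -0.11 without EXO-STD replicate 1. Aldoc, the aldolase form typical of brain, read 2.43 and 1.72 in EXO-STD and 1.47, 2.04 and 1.67 in EXO-HP. Its arrays overlapped in the same way, and the difference of -0.35 ± 0.31 had a 95% interval from -1.12 to 0.41.

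Tpi1, the triose phosphate isomerase, read 4.86 and 3.93 in EXO-STD and 3.84, 4.32 and 3.99 in EXO-HP. The lower EXO-STD array lay within the EXO-HP range, so the groups overlapped. Its 2 probes gave -0.34 and -0.28, and without EXO-STD replicate 1 the first was 0.12. Gpi1 read 5.28 and 4.59 in EXO-STD and 4.50, 4.85 and 4.48 in EXO-HP, and overlapped likewise. Its 3 probes gave -0.33, -0.44 and -0.51, of which the last did not overlap between groups.

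Gapdh, the glyceraldehyde phosphate dehydrogenase often used as a reference gene, read 7.12 and 6.62 in EXO-STD and 6.61, 6.92 and 6.74 in EXO-HP. EXO-HP replicate 1 lay 0.01 below the lower EXO-STD array, and the others lay between the EXO-STD arrays. The difference was -0.11 (95% interval -0.71 to 0.49). The other 6 Gapdh probes ranged from -0.14 to 0.05, and 1 of them is placed by the array design on chromosome 8 rather than at the gene on chromosome 6. Gapdh and several other glycolytic genes have processed pseudogenes, so the share of each signal that comes from near-identical copies is uncertain.

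Pgk1, the first ATP-forming kinase of the pathway, had 1 probe and was not tested. It read 5.15 and 4.43 in EXO-STD and 4.57 and 4.39 on EXO-HP replicates 2 and 3. On EXO-HP replicate 1 its only spot was marked as an outlier by the scanner software. With that spot kept, an alternative chosen after seeing the data, it read -0.78 there, and the difference of -2.06 ± 1.68 (limma, adjusted p = 1.00) rested on it.

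Pgam1, the phosphoglycerate mutase, read 5.04 and 4.75 in EXO-STD and 4.73, 4.67 and 4.56 in EXO-HP. It was the only glycolytic enzyme whose groups did not overlap, by a margin of 0.01 between EXO-STD replicate 2 and EXO-HP replicate 1. The difference was -0.24 ± 0.20, and -0.10 without EXO-STD replicate 1.

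The enolases had unequal array patterns. Eno1, the widespread form, read 5.03 and 4.74 in EXO-STD and 4.51, 4.86 and 4.51 in EXO-HP, a difference of -0.26 ± 0.23. Eno2, the form of neurons and endocrine cells, read 0.65 and 0.24 in EXO-STD and 0.43, 0.28 and 0.11 in EXO-HP, a difference of -0.17 ± 0.23. Both overlapped, with EXO-HP replicate 2 highest of its group for Eno1 and EXO-HP replicate 1 for Eno2.

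Pkm2, the array's name for the pyruvate kinase gene Pkm, read 4.83 and 4.48 in EXO-STD and 4.63, 4.83 and 4.53 in EXO-HP. It had no difference larger than the spread (0.01, 95% interval -0.54 to 0.56), and its sign turned to -0.16 with median scaling. The probe does not separate the splice forms as far as the files say.

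**Figure D2:**
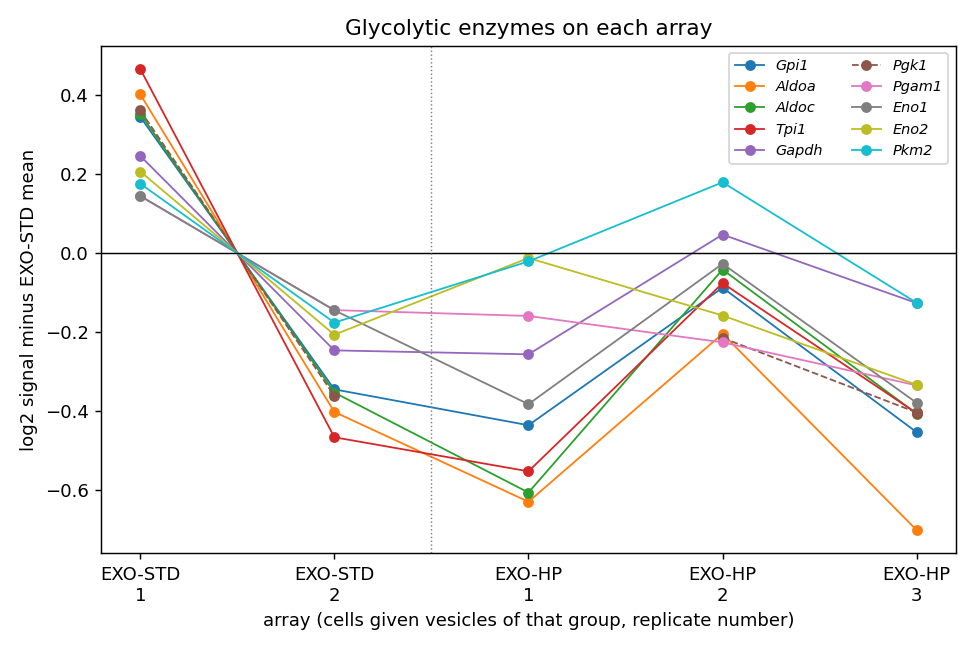
Log2 signal of each glycolytic enzyme minus its EXO-STD mean on each of the 5 arrays; lines join the values of 1 gene, imply no order of replicates, and are dashed for Pgk1, which lacks EXO-HP replicate 1. EXO-STD replicate 1 is the highest array for every line but that of Pkm2, and EXO-HP replicate 2 lies above the other EXO-HP arrays for most genes.

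Bright probes as a class were also high on EXO-STD replicate 1, but their EXO-HP arrays did not lie as low. Among the brightest 10% of tested genes (2587 genes), the median deviation from the EXO-STD mean was 0.18 and -0.18 in EXO-STD and -0.15, 0.17 and -0.10 in EXO-HP. For the glycolytic enzymes it was 0.25 and -0.25 in EXO-STD and -0.38, -0.08 and -0.38 in EXO-HP. EXO-STD replicate 2 was thus the lowest array of the bright genes but not of the enzymes, and the median difference was -0.03 for the bright genes against -0.26. Of those bright genes 58.1% had a lower mean in EXO-HP and 34.3% were highest on EXO-STD replicate 1. Without that array 28.4% of the bright genes had a lower mean (median 0.14), beside 3 of 9 enzymes (median 0.02). Of the 9 tested enzymes, 7 belonged to the brightest 10%, with Aldoc and Eno2 outside. The part of this brightness pattern in the enzymes' values was not tested.

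The 22 other HIF targets followed EXO-STD replicate 1 less closely in the counts, a contrast that was not tested. Of these, 16 had a lower mean in EXO-HP (median -0.25) and 11 were highest on EXO-STD replicate 1. Without that array 17 had a lower mean and the median was -0.11. Their median deviation from the EXO-STD mean was -0.23, -0.13 and -0.18 on the 3 EXO-HP arrays.

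**Figure D3:**
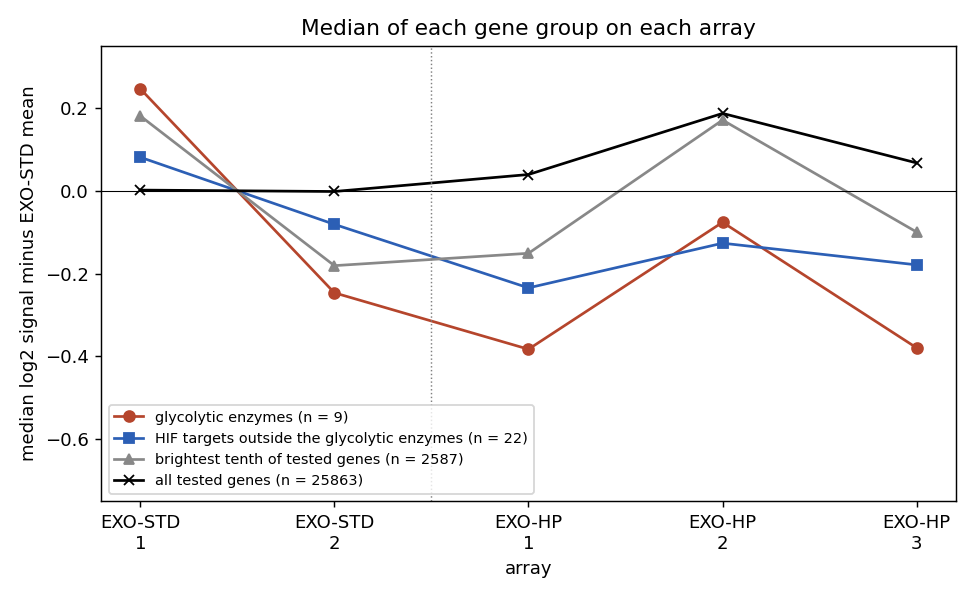
Median log2 signal minus the EXO-STD mean on each array for the 9 glycolytic enzymes, the 22 other HIF targets, the brightest 10% of genes and all tested genes; lines join 1 group of genes and imply no order of replicates. The glycolytic enzymes run from 0.25 on EXO-STD replicate 1 to -0.38 on EXO-HP replicates 1 and 3 but -0.08 on replicate 2, while the other HIF targets stay between -0.23 and -0.13 on the EXO-HP arrays.

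Among chromatin and transcription genes, 2 had EXO-HP arrays wholly below EXO-STD. Kdm3a, a histone lysine demethylase that uses oxygen and 2-oxoglutarate, read 1.52 and 1.66 in EXO-STD and 1.06, 1.04 and 1.37 in EXO-HP. Every EXO-HP array was lower than both EXO-STD arrays, and the means were 1.59 ± 0.10 (SD, n = 2) and 1.16 ± 0.18 (SD, n = 3). The difference of -0.43 ± 0.21 ranged from -0.50 to -0.36 without either EXO-STD array.

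Bhlhe40, a basic helix-loop-helix repressor, read -2.07 and -2.31 in EXO-STD and -2.61, -2.50 and -2.52 in EXO-HP. The EXO-HP arrays lay close together and below both others. Its difference was -0.36 ± 0.20 (95% interval -0.84 to 0.13, limma adjusted p = 0.955).

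Zfp395, a zinc finger protein, had a brightest probe at 0.02 ± 0.20, and its 3 other probes gave 0.14, 0.41 and 0.53, the last with an unadjusted p of 0.0489 (limma adjusted p = 0.886) and non-overlapping groups. The brightest probe turned to -0.15 with median scaling. Mxi1, a MAX partner that opposes MYC, was not well above background on any EXO-STD array and on 1 of 3 EXO-HP arrays, and was not tested.

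The hydroxylases that modify collagen divided by gene. They too use oxygen and 2-oxoglutarate. P4ha1, the main prolyl hydroxylase subunit, read -1.47 and -1.50 in EXO-STD and -1.86, -2.05 and -1.66 in EXO-HP. The EXO-STD arrays differed by 0.03 and every EXO-HP array lay below them. The difference was -0.37 ± 0.21 (95% interval -0.90 to 0.15), and a second, dimmer P4ha1 probe gave -0.25 with overlapping groups.

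P4ha2, a second prolyl hydroxylase subunit, had -0.29 ± 0.24, which was -0.03 without EXO-STD replicate 1. Plod2, the lysyl hydroxylase of collagen telopeptides, read -1.56 and -1.30 in EXO-STD and -1.70, -1.65 and -1.59 in EXO-HP. Its groups were separated by 0.03, and the difference was -0.22 ± 0.20. Plod1, the related lysyl hydroxylase, had probes at 0.15 and 0.38. On the second, dimmer probe all EXO-HP arrays lay above both EXO-STD arrays, and the first turned to -0.03 with median scaling.

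Ero1l, the array's name for Ero1a, the oxidase that reoxidises protein disulfide isomerase in the endoplasmic reticulum, read -1.87 and -1.50 in EXO-STD and -1.84, -2.26 and -2.11 in EXO-HP. Only EXO-HP replicate 1 overlapped with EXO-STD, lying 0.03 above EXO-STD replicate 1. The difference was -0.39 ± 0.24, and -0.16 on slide 1 alone.

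Narf, a nuclear protein that binds prelamin A, read -2.40 and -2.55 in EXO-STD and -2.84, -2.83 and -2.80 in EXO-HP. The EXO-HP arrays spanned 0.04 and all lay below EXO-STD. Its difference of -0.35 ± 0.19 had a limma adjusted p of 0.953.

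Among the 31 tested genes, Fam162a and Ankrd37 had the largest mean differences, with the same order of arrays. Fam162a, a mitochondrial protein linked to hypoxic cell death, read 2.25 and 1.32 in EXO-STD and 0.90, 1.64 and 1.05 in EXO-HP. EXO-HP replicate 2 lay between the EXO-STD arrays and the other EXO-HP arrays below both. The probe was spotted 10 times on each array, and the SD between its usable spots was 0.04 to 0.11, which covers spot error within an array only. The EXO-STD samples lay 0.93 apart. The difference of -0.59 ± 0.38 was -0.12 without EXO-STD replicate 1 and -0.88 on slide 1 alone.

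Ankrd37, an ankyrin repeat protein strongly induced by HIF, read 1.08 and 0.20 in EXO-STD and -0.23, 0.49 and -0.01 in EXO-HP. Again EXO-HP replicate 2 overlapped with EXO-STD. The difference of -0.56 ± 0.36 was -0.12 without EXO-STD replicate 1.

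**Figure D4:**
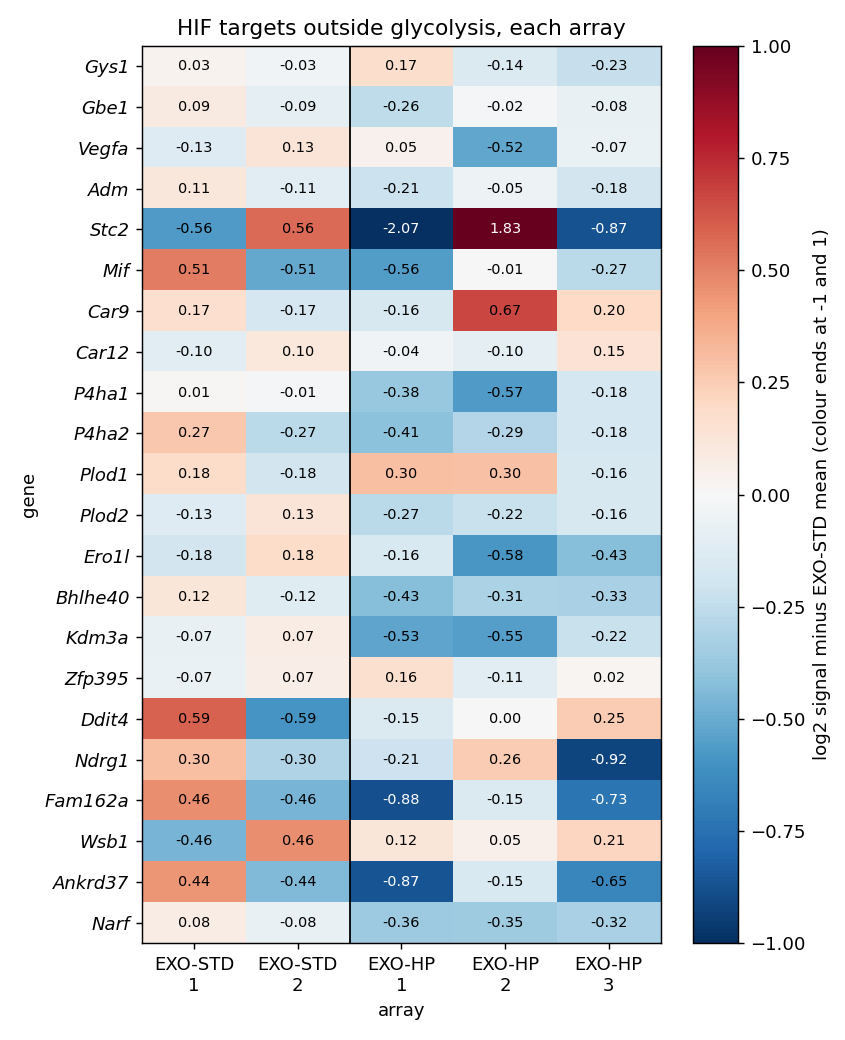
Log2 signal minus the EXO-STD mean for the 22 tested HIF targets outside glycolysis (rows) on the 5 arrays (columns), printed in each cell and coloured from blue (lower) to red (higher), with colour ending at -1 and 1. Kdm3a, P4ha1, Plod2, Bhlhe40 and Narf are blue on all 3 EXO-HP arrays, with P4ha1 (-0.18) and Plod2 (-0.16) pale on replicate 3. Other genes are blue on all 3 as well. Among them, Fam162a and Ankrd37 are near -0.15 on EXO-HP replicate 2 and below -0.6 on replicates 1 and 3.

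Secreted factors had lower means with overlapping groups. Vegfa, the vascular growth factor, gave -0.18 ± 0.25 with its brighter probe and 0.15 with the other, whose EXO-HP arrays lay above both EXO-STD arrays, so its probes pointed in opposite directions. Adm, the vasodilator adrenomedullin, had -0.15 ± 0.20, and Mif, a cytokine, -0.28 ± 0.37 with a second probe at -0.32. Mif was 0.23 without EXO-STD replicate 1.

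Stc2, the glycoprotein stanniocalcin, read -6.42 and -5.29 in EXO-STD and -7.92, -4.02 and -6.73 in EXO-HP. It was well above background on 1 EXO-STD and 2 EXO-HP arrays. EXO-HP replicate 2 was the highest and replicate 1 the lowest of all 5, and the interval of the difference ran from -3.23 to 2.49.

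The carbonic anhydrases, which buffer pH at the cell surface, gave no lower mean. Car9 had 0.24 ± 0.30, with -3.75 on EXO-HP replicate 2 against -4.58 and -4.22 on the others, and was -0.01 in the authors' deposited values and -0.16 with the slide as a block. Car12 showed almost equal means (95% interval -0.50 to 0.50) and was -0.28 with quantile normalisation. The glycogen enzymes, the synthase Gys1 (-0.07 ± 0.22) and the branching enzyme Gbe1 (-0.12 ± 0.20), overlapped between groups.

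Several stress genes varied widely between samples of 1 group. Ddit4, an inhibitor of mTORC1, had 0.04 ± 0.39 with a gap of 1.18 between the EXO-STD arrays, and gave 0.63 without EXO-STD replicate 1 and -0.55 without replicate 2. Ndrg1, a stress-responsive protein, had -0.29 ± 0.40, with 1.66 on EXO-HP replicate 3 against 2.37 and 2.83 on the others. Wsb1, a substrate receptor of a ubiquitin ligase, had 0.13 ± 0.31 and turned to -0.05 with median scaling. Higd1a, a mitochondrial protein, was well above background on 1 EXO-STD and 1 EXO-HP array and was not tested.

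On slide 1 alone, EXO-HP replicate 1 could be set against both EXO-STD arrays, without a test. It lay below both for 19 of the 31 genes, against 21.1% of all tested genes, and the median difference was -0.26. EXO-HP replicates 2 and 3, on slide 2, lay below both EXO-STD arrays for 11 and 18 of the 31, against 22.0% and 22.1% of all genes.

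The promoters of the genes whose EXO-HP arrays lay wholly below EXO-STD, and of the 2 tested genes with the largest mean differences, are shown, as far as a window was given, because HIF acts through the core elements ACGTG and GCGTG. Each window is the 250 bases before a RefSeq transcription start on GRCm38.p6, 5′ to 3′ on the gene's strand, with both cores on either strand in capitals. Where cores overlap the capitals merge. Of the 34 genes, 30 had a window.
Kdm3a (chr6:71632918-71633167, minus strand): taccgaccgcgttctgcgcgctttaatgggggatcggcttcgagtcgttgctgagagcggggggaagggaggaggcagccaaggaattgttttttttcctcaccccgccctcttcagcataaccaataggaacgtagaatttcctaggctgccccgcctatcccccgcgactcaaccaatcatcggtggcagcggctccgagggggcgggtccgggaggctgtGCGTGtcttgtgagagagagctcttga
P4ha1 (chr10:59323046-59323295, plus strand): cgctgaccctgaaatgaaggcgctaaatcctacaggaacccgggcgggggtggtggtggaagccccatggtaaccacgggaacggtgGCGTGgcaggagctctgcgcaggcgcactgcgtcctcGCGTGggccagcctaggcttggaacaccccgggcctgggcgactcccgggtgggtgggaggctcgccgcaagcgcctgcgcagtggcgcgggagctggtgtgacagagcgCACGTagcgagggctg
Narf (chr11:121236986-121237235, plus strand): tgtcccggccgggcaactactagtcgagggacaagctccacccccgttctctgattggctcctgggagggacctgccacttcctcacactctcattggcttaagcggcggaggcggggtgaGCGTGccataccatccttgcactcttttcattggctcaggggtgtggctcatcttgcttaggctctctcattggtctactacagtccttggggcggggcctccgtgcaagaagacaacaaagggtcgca
Pgam1 (chr19:41911621-41911870, plus strand): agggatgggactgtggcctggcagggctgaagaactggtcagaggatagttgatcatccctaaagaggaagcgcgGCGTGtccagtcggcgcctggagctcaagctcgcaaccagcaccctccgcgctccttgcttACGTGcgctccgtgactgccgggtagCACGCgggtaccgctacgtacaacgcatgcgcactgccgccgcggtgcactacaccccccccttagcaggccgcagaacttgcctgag
Ankrd37 (chr8:45999851-46000100, minus strand): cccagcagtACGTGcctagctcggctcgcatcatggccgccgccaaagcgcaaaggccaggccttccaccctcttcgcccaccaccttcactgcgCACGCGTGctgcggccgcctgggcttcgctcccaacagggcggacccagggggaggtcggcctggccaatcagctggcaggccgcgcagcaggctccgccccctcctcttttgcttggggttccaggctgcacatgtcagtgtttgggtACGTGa
Fam162a (chr16:36071562-36071811, minus strand): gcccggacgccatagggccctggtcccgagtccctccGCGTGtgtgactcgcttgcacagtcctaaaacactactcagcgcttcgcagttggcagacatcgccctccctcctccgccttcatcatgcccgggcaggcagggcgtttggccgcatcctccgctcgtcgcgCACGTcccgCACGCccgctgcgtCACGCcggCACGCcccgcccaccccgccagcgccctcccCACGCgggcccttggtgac

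Fam162a held 1 ACGTG and 5 GCGTG cores, Ankrd37 2 of each, and P4ha1 and Pgam1 1 ACGTG and 2 GCGTG cores each. The Narf window and the Kdm3a window shown held 1 GCGTG core and no ACGTG, and the 2 other Kdm3a windows held neither core. Over the 30 genes, 14 (46.7%) had an ACGTG core in at least 1 window and 18 (60.0%) a GCGTG core, against 18.5% and 30.9% of 27025 genes with a window. The member windows were also richer in G and C, with a median of 59.8% against 52.4%. A match describes letters in the window and is no evidence of binding, and the list was chosen for known HIF targets.

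Further genes of the same pathways were taken from 2 lists drawn up with earlier results of these data known, and 0 passed an adjusted p of 0.05 in limma. An unadjusted p under 0.05 in limma with a lower mean was reached by 4 members of the first list and 3 of the second, Lox among the latter. The share over all tested genes was 0.240%. Because the lists were drawn up with earlier results known, these counts cannot measure an excess over that share. Pfkfb4 and Slc2a1 stand in both lists. Of 18 tested genes of glucose uptake, upper glycolysis and lactate handling, 11 had a lower and 7 a higher mean (median -0.20), and the smallest p-values belonged to Ldha (-1.88 ± 0.61), Slc16a3 (-1.28 ± 0.42) and Pfkfb3 (-0.71 ± 0.26). Of 22 tested genes of the HIF pathway and its further targets, 13 were lower and 9 higher (median -0.10), among them Ak4 (-2.04 ± 0.34) and Bnip3 (-0.92 ± 0.27). Lox, also among the 3, was well above background on 1 of 3 EXO-HP arrays, so it passed the filter through EXO-STD and no size is given for it. Hif1a itself, the oxygen-regulated subunit, had -0.12 ± 0.20.

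Probes lay on mm9, per the file headers, at chromosome 6, 71539112 to 71539171 for Kdm3a, chromosome 10, 58835625 to 58835684 for P4ha1, chromosome 9, 92502483 to 92502542 for Plod2, chromosome 6, 108616309 to 108616368 for Bhlhe40, and chromosome 11, 121117026 to 121117085 for Narf. Those of Pgam1, Fam162a and Ankrd37 lay at chromosome 19, 41992898 to 41992957, chromosome 16, 36044032 to 36044091, and chromosome 8, 47082404 to 47082463. Exon annotation of that build was not used here.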

How the data were processed

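Scanner tables of 5 arrays were used. Per the file headers, the deposited intensity is background-subtracted and detrended by Agilent software, release 10.7.3.1, with surrogates for spots not above background. The submitters' processing notes name Feature Extraction 9.1 and limma. The authors' deposited value table holds log2 values with the same distribution on each array (median 7.93), whose ranks equal those of the mean signal minus local background, and served as an alternative. Array flags (other units) were used as deposited.

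Log2 of the processed intensity was taken on 43020 spots without controls, outlier spots were left out, spots of 1 of the 39429 probes were averaged, and the 75th percentile of each array was subtracted. Probes without a usable spot on some array (110) or well above background on fewer than 2 arrays of every group (7376) were left out, and 31943 were tested with limma 3.58.1 in R 4.3.3 (EXO-HP minus EXO-STD, no covariate, 3 residual and 2.59 prior degrees of freedom, Benjamini-Hochberg over all probes). No spot was saturated. The number of arrays limits the precision. The fit was tested on simulated data.

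Members and lists were chosen with earlier results of these data known. All array values were given for glycolytic enzymes, members whose groups did not overlap, and the 10 largest differences. Symbols were updated by accession through RefSeq genes of GRCm38.p6. 1 further gene list is not reported here.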

Additional observations from a re-analysis of the deposited data

How the results depend on the processing

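The members' median difference stayed below 0 under the 14 of 15 other settings for which it was computed (keeping outlier spots, 1 of them, was chosen after seeing the data; it was not computed without a filter on dim probes), and 0 members passed an adjusted p of 0.05 in limma under any. Median scaling gave a median of -0.44 and took that of all genes from 0.07 to -0.10. The range was -0.37 to -0.045 when single arrays were left out. Probes past an adjusted p of 0.05 then numbered 0 to 3, with 3 without EXO-STD replicate 1. The labels do not say whether the replicate numbers pair the samples. Deviations of samples with the same number had correlations of 0.02 and -0.06. These cannot decide it, because the deviations of the 2 EXO-STD arrays mirror each other. The replicate block, which uses only the 2 numbers both groups share, gave a median of -0.20 with 24 lower means. Leaving out EXO-HP replicate 3 gave the same median, because it uses the same arrays. The slide block rests on EXO-HP replicate 1 against both EXO-STD arrays, because slide 2 held only EXO-HP samples. Its median of -0.26 is that of slide 1 alone. These settings therefore repeat each other and are not separate checks.

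Of 31 members 17 turned sign at least once. Median scaling moved every difference down by the same amount, so its turns reflect a shifted zero. The members' median minus that of all genes was -0.335 with it and in the main fit. The cause of the other turns was not tested. With normexp, Car9 was -7.23e-03, Car12 -0.19, Zfp395 -0.093 and Wsb1 -0.047. With quantile normalisation, Car12 was -0.28, Zfp395 -0.088 and Wsb1 -0.026. With median scaling, Pkm2 was -0.16, Car12 -0.17, Plod1 -0.030, Zfp395 -0.15, Ddit4 -0.14 and Wsb1 -0.048. In the deposited values, Car9 was -0.014, Car12 -0.25, Zfp395 -0.11 and Wsb1 -0.050. With the slide as a block, Pkm2 was -0.021, Gys1 0.17, Vegfa 0.047, Car9 -0.16, Car12 -0.039 and Ddit4 -0.15. With the replicate block, Gys1 was 0.015, Car12 -0.069, Ddit4 -0.072 and Ndrg1 0.024.

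With single arrays left out, Gpi1 ranged from -0.67 to 0.019, Aldoc from -0.71 to 1.6e-03, Tpi1 from -0.81 to 0.12, Gapdh from -0.36 to 0.13, Eno2 from -0.37 to 0.039, Pkm2 from -0.17 to 0.19, Gys1 from -0.19 to 0.015 and Mif from -0.79 to 0.23. Stc2 ranged from -1.47 to 0.48, Car12 from -0.10 to 0.11, Plod1 from -0.034 to 0.33, Zfp395 from -0.045 to 0.092, Ddit4 from -0.55 to 0.63, Ndrg1 from -0.59 to 0.024 and Wsb1 from -0.33 to 0.59.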
